A study of Rattus norvegicus with 4 samples.

Results

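Superoxide dismutases, catalase, peroxiredoxins and thioredoxin form the chain of enzymes that removes superoxide and peroxide from a cell, and their transcripts were followed in RTEC11 cells at 2 culture temperatures. The set was given as 10 gene names, and a gene entered when a probe set of the array was annotated to its symbol and to no other. That held for 9 of the 10, with 1 probe set each, among 10411 genes with such a probe set. The exception was Prdx1, whose 1 probe set carries the symbol of a second gene as well, so no value is given for it. All 9 lay above the limit for dim genes, a normalized log2 value of 6.60, and were among the 7016 genes tested.

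RTEC11 is a conditionally immortalized tracheal epithelial line from transgenic rats that carry a temperature-sensitive large T antigen of simian virus 40. Cells of both groups therefore hold the transgene. They were cultured for 3 days at 33 °C, the permissive temperature, at which the antigen is active and keeps cells dividing, or for 3 days at 39 °C, the nonpermissive temperature, at which it loses activity. The series studies growth arrest and differentiation at 39 °C, with 2 arrays per group and 4 in all. Heat and loss of the antigen's activity came at once and cannot be told apart, and both groups are of 1 cell line. Whether the replicates were separate cultures is not stated, so a p-value here reflects the variation among 4 arrays, part or all of which may be technical. Precision is limited by the number of arrays.

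Superoxide is turned into hydrogen peroxide by superoxide dismutases, a copper and zinc enzyme in the cytosol (Sod1) and a manganese enzyme in the mitochondrial matrix (Sod2). The peroxide is then split by catalase, a heme enzyme of peroxisomes (Cat), or reduced by peroxiredoxins, most of which take their electrons from thioredoxins. Txn1 is the thioredoxin of the cytosol. Airway epithelium faces inhaled oxygen and oxidants, and carries forms of these enzymes in each compartment.

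The arrays were those of epithelial cells by their markers. Of 15 epithelial markers with a probe set, 13 lay above the dim limit, against 1 of 4 for ciliated cells, 3 of 11 for fibroblasts and smooth muscle, 1 of 7 for leukocytes, 0 of 3 for endothelium and 0 of 2 for red cells. The summed intensity of 5 airway secretory markers was 459.2 to 501.3 at 33 °C and 1213 to 1436 at 39 °C, and that of the epithelial markers 80363 to 83664 and 91543 to 91869. Not all of them rose: 3 secretory markers were called higher and 1 lower, and 7 epithelial markers higher and 2 lower. The sum of the fibroblast and smooth muscle markers was 8580 to 9728 at 33 °C and 8089 to 8845 at 39 °C. Of these markers 1 was called higher and 0 lower. Over probe sets on the log2 scale, the correlation between replicates was 0.979 for 33 °C and 0.980 for 39 °C. The 3′ to 5′ intensity ratio of the Gapdh control probe sets, a measure of RNA quality, was 1.17 and 1.14 at 33 °C and 1.12 and 1.01 at 39 °C, and that of beta-actin 1.18 and 1.33 at 33 °C and 1.38 and 1.26 at 39 °C. The part of these marker and quality differences in the results was not tested. In bulk RNA, fewer cells with a transcript and less of it per cell cannot be told apart.

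The promoters of Cat, Sod1 and Sod2 are shown because these genes moved apart, Cat and Sod1 upward and Sod2 downward. Each runs 5′ to 3′ from 250 bases before to 50 bases after the start of the gene, from RefSeq on build GRCr8: Cat at chr3:110329477-110329776 on the minus strand, Sod1 at chr11:42942573-42942872 on the plus strand and Sod2 at chr1:50050119-50050418 on the minus strand. Capitals mark matches, on either strand, to TATAAA (the TATA box), CCAAT (the CCAAT box), GGGCGG (GC box), CACGTG (E-box), TGACNNNGC (core of the antioxidant response element, bound by NRF2) and GAANNTTC (core of the heat shock element).

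Cat: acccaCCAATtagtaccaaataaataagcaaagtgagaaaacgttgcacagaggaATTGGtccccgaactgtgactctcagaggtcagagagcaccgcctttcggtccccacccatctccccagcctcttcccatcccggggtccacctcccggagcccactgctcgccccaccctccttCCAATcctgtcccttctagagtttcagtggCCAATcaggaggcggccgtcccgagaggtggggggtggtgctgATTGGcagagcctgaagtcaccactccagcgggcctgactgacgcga
Sod1: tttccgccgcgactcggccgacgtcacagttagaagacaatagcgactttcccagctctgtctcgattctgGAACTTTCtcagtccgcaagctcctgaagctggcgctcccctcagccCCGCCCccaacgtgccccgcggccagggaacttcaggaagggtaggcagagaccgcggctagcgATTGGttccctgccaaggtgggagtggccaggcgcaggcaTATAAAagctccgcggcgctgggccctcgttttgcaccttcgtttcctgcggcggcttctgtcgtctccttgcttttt
Sod2: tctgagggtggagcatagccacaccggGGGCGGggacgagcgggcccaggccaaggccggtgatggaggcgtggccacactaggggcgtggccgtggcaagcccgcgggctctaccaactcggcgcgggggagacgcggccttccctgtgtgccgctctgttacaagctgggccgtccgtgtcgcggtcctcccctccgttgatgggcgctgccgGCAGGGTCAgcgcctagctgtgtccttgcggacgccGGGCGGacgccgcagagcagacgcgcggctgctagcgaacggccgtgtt

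The Cat window held 5 matches to CCAAT and none of the other motifs. The Sod1 window held 1 match each to the TATA box, the CCAAT box, the GC box and the heat shock element core, with the TATA box starting at base -28. The Sod2 window held 2 matches to GGGCGG and 1 to TGACNNNGC, which started at base -35. The promoter table held 8 of the 9 members, all but Prdx6. GGGCGG was found in 7 of these 8, against 33.1% of all 33465 promoters of this length, CCAAT in 3 (37.5% of all promoters), TGACNNNGC in 3 (12.1%), TATAAA in 2 (14.2%), CACGTG in 1 (6.42%) and GAANNTTC in 1 (8.59%). The 3 with TGACNNNGC were Sod2, Prdx4 and Prdx5. Members and all promoters also differed in base composition, with 58.3% to 72.0% G and C in the members against a median of 51.7%. The matches are a description of these letters only.

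The members did not move as a group. Of the 9, 2 were higher at 39 °C (Cat and Sod1), 4 were lower (Sod2, Prdx5, Prdx4 and Prdx3) and 3 were not called (Prdx2, Txn1 and Prdx6), by limma across all genes tested at an adjusted p under 0.05. In the background of all genes tested 49.1% were called, 23.1% higher and 26.1% lower. The groups did not overlap for 8 of the 9 members, the exception being Prdx6, against 75.1% of all genes tested. The median log2 change was -0.20 over the members and -0.04 over all genes tested. A log2 change is 39 °C minus 33 °C after 16 was added to each intensity and the arrays were quantile normalized. Intensities given per array are those deposited, on a linear scale.

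**Figure D1:**
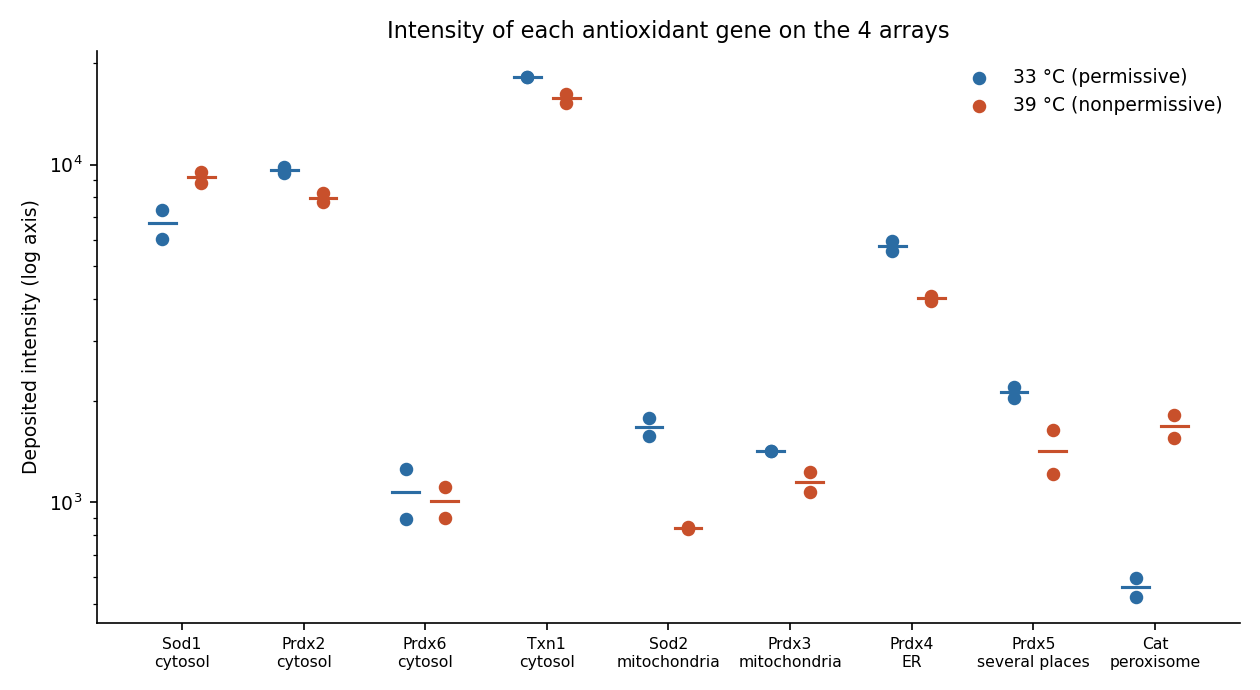
Deposited intensity of each gene on a log axis, with 1 point per array (2 at 33 °C in blue, 2 at 39 °C in orange), the group mean as a bar and the main place of the protein under the symbol. Cat is above its 33 °C arrays on both 39 °C arrays (1553 and 1810 against 525.7 and 599.1) and Sod2 below them (831.8 and 846.6 against 1568 and 1782). Heights of different genes come from different probes and are not comparable.

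Cat, the peroxisomal enzyme, changed most. Its intensity was 599.1 and 525.7 on the 33 °C arrays and 1553 and 1810 on the 39 °C arrays. Both 39 °C arrays were above both 33 °C arrays. The log2 level rose from 9.21 ± 0.13 to 10.73 ± 0.15 (SD, n = 2 each), a change of 1.52 ± 0.12 (SE) or 2.87-fold, with an adjusted p of 2.15e-06 (limma). Among the 7016 genes tested this was rank 156 in order of rise, and 96.7% of them changed by less in either direction. The change was 1.42 to 1.64 when each array was left out in turn.

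The dismutases went in opposite directions. Sod2, the mitochondrial form, had intensities of 1568 and 1782 at 33 °C and of 831.8 and 846.6 at 39 °C. Both 39 °C values were below both 33 °C values. Sod2 fell by 0.99 ± 0.11 (SE) on the log2 scale, 1.98-fold, from 10.71 ± 0.13 to 9.72 ± 0.01 (SD, n = 2 each), with an adjusted p of 2.35e-05 (limma). Sod1, the cytosolic form, had intensities of 6044 and 7349 at 33 °C and of 9511 and 8845 at 39 °C. Again the groups did not overlap, with the 2 arrays at 33 °C further apart than those at 39 °C. Sod1 rose by 0.55 ± 0.10 (SE), 1.46-fold, with an adjusted p of 9.10e-04 (limma), and the change was 0.41 without permissive replicate 1 and 0.70 without permissive replicate 2. The Sod1 call depended on the scaling of the arrays. It was lost when they were scaled to their poly-A spike-in controls (log2 change 0.08, adjusted p 0.574 by limma), while Cat (1.17) and Sod2 (-1.36) were called under that scaling.

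Among the peroxiredoxins with a value, none was called higher, and the 3 called lower are forms found outside the cytosol or in several places. The cytosolic Prdx2 also fell without overlap (-0.20), short of the threshold, and was called lower with each of the other scalings. The calls alone therefore do not set the compartments apart. Prdx5, which occurs in mitochondria, peroxisomes and the cytosol, had intensities of 2045 and 2196 at 33 °C and of 1635 and 1212 at 39 °C. Both 39 °C arrays were lower, and on the log2 scale they differed from each other by more than those of any other member. Prdx5 fell by 0.56 ± 0.13 (SE) on the log2 scale, 1.47-fold, with an adjusted p of 0.00488 (limma). Without nonpermissive replicate 2, the lower of the 2, the change was -0.34 and the call was lost (adjusted p 0.0553 by limma).

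Prdx4, the form of the endoplasmic reticulum and the secretory route, had intensities of 5933 and 5550 at 33 °C and of 3953 and 4093 at 39 °C. The groups were clear of each other. Prdx4 fell by 0.40 ± 0.08 (SE) on the log2 scale, 1.32-fold, with an adjusted p of 0.00236 (limma). Prdx3, the form of the mitochondrial matrix, had intensities of 1416 and 1421 at 33 °C and of 1077 and 1229 at 39 °C. Both 39 °C values were lower. Its log2 change of -0.30 ± 0.11 (SE) passed narrowly, with an adjusted p of 0.0351 (limma). The Prdx3 call was lost without permissive replicate 1 (-0.31), permissive replicate 2 (-0.30) or nonpermissive replicate 1 (-0.21).

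The remaining cytosolic members were not called. Prdx2, a cytosolic peroxiredoxin, had intensities of 9438 and 9847 at 33 °C and of 8246 and 7730 at 39 °C. Its groups did not overlap, and its log2 change of -0.20 had a 95% confidence interval of -0.38 to -0.02 and an adjusted p of 0.0610 (limma). Txn1, the cytosolic thioredoxin that supplies electrons to peroxiredoxins, had intensities of 18126 and 18208 at 33 °C and of 15268 and 16164 at 39 °C. Its change was -0.13, with an interval of -0.29 to 0.03 and an adjusted p of 0.154 (limma). Prdx6, a peroxiredoxin that uses glutathione in place of thioredoxin, had intensities of 1253 and 891.2 at 33 °C and of 900.4 and 1114 at 39 °C. Here the groups overlapped, and the change of -0.09 had an interval of -0.44 to 0.25 with an adjusted p of 0.639 (limma). That interval holds changes of either sign, so these arrays leave the direction of Prdx6 undecided.

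How many members were called lower depended on the scaling. Quantile normalization gave 2 higher and 4 lower. On the deposited scale 2 were higher and 6 lower (23.7% of all genes lower), since Prdx2 (-0.27) and Txn1 (-0.21) were called as well. With each array centred on its median the counts were again 2 and 6 (33.1% of all genes lower). With arrays scaled to the 24 poly-A spike-in control probe sets 1 was higher and 7 lower, and Prdx6 was then called (-0.46). Of all genes 11.4% were then higher and 47.9% lower. The mean log2 level of these controls before scaling was 6.63 and 6.69 at 33 °C and 6.99 and 7.09 at 39 °C. That mean is near the dim limit of 6.60, so calls lost or gained with this scaling rest on a reference of low signal. Over all tested genes the median change was 0.02 on the deposited scale, -0.13 with median centring and -0.36 with spike-in scaling (log2). The share of higher genes among all genes called was 47.0% with quantile normalization, 52.3% for the deposited values, 36.7% with median centring and 19.2% with spike-in scaling. Each member kept the sign of its change under these 4 scalings.

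**Figure D2:**
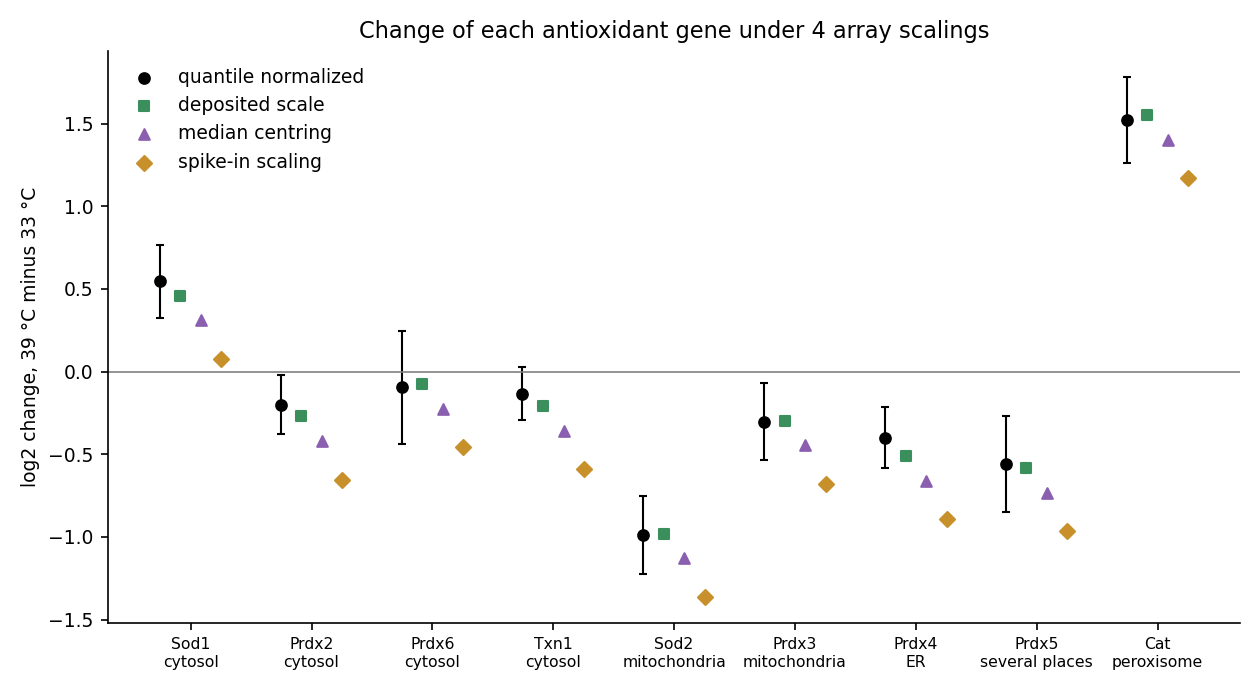
The log2 change of each gene, 39 °C minus 33 °C, under 4 ways of scaling the arrays, with the 95% confidence interval drawn for quantile normalization. Cat is above 1 and Sod2 close to or below -0.98 under all 4, whereas Sod1 comes down to 0.08 with spike-in scaling.

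Forms in different compartments were set against each other within each array, where a shift of a whole array cancels. Only the change of such a difference between temperatures can be read, since the levels come from different probes. Values given are from quantile normalization, which is not a shift of whole arrays and so does not cancel. With each of the other scalings Cat minus Sod1 moved by 1.09, Prdx3 minus Prdx2 by -0.03 and Prdx6 minus Prdx2 by 0.19. For 9 differences between members or groups of members an exact two-sided permutation test over the 4 arrays was run, and the smallest p that 2 against 2 arrays can give is 0.333. The log2 difference Sod2 minus Sod1 was -1.906 and -2.003 at 33 °C and -3.552 and -3.422 at 39 °C. The ratio of the mitochondrial to the cytosolic dismutase signal thus moved by -1.53 on the log2 scale, 2.89-fold, with no overlap (exact p = 0.333, adjusted 0.429 over the 9). Catalase went up against both other compartments. Cat minus Sod1 moved by 0.98, Cat minus the mean of the cytosolic members (Sod1, Prdx2, Prdx6 and Txn1) by 1.49, and Cat minus the mean of the mitochondrial members (Sod2 and Prdx3) by 2.17, or 4.49-fold. The mitochondrial mean minus the cytosolic mean moved by -0.67, 1.60-fold, from -1.98 and -1.86 at 33 °C to -2.63 and -2.56 at 39 °C. The groups did not overlap in any of these 4 (exact p = 0.333 for each).

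Within the peroxiredoxins the shifts were smaller. Prdx5 minus Prdx2 moved by -0.36 and Prdx4 minus Prdx2 by -0.20, each without overlap (exact p = 0.333). Prdx3 minus Prdx2, the mitochondrial against the cytosolic form, moved by -0.10 with overlapping groups (exact p = 1), and its sign turned to 0.04 without nonpermissive replicate 1. Prdx6 minus Prdx2 moved by 0.10, also with overlap (exact p = 0.667), and turned to -0.16 without permissive replicate 2 and to -0.11 without nonpermissive replicate 2. Whether the shift of Sod2 against Sod1 differs from that of Prdx3 against Prdx2 was not tested.

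**Figure D3:**
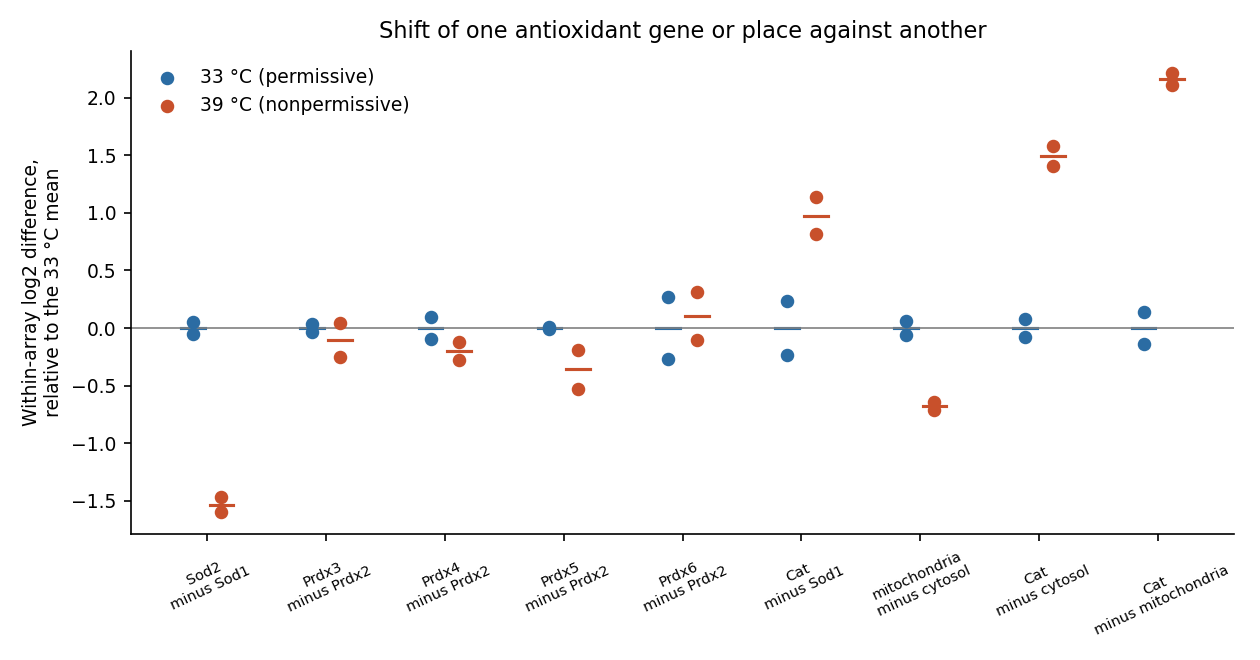
Within-array log2 difference between members, or between means of members, relative to its mean at 33 °C, with 1 point per array and the group mean as a bar. Sod2 minus Sod1 lies 1.53 lower and Cat minus mitochondria 2.17 higher at 39 °C, while Prdx3 minus Prdx2 and Prdx6 minus Prdx2 overlap.

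The genes that work with these enzymes are given from 7 lists by role, with counts from quantile normalization. Each list is described by its counts and its median, beside a median of -0.04 and 49.1% called over all genes tested. With spike-in scaling, which shifts all genes downward compared with the deposited values, the medians of the NRF2 list (-0.17) and the peroxisome list (-0.09) turned below 0 and the NRF2 counts became 3 higher and 7 lower. The folding list then had 0 higher and 11 lower, and with median centring 0 and 6. All genes tested had a median of -0.36 with spike-in scaling, with 11.4% higher and 47.9% lower. With median centring 33.1% of all genes were lower. On the deposited scale the median of the metal list was 0.11. Of 24 tested partners in the thioredoxin and glutathione systems, 7 rose, 8 fell and 9 were not called (median -0.07). Sesn1, counted as higher, had a permissive mean log2 level of 6.58, under the dim limit of 6.60. Txnrd3, counted as lower, had nonpermissive log2 levels of 6.20 and 6.57, also under that limit. Sesn1 and Txnrd3 thus entered the test through their brighter group. Glrx, the cytosolic glutaredoxin, rose 3.43-fold (log2 change 1.78, and 1.88 by its second probe set). Txnip, which binds thioredoxin and inhibits it, rose 2.47-fold, so that this inhibitor was higher while Txn1 itself was not called. Gss, which completes glutathione synthesis, fell 3.19-fold, and Msrb1, a selenium enzyme that repairs oxidized methionine, fell 1.83-fold. Direct partners of the members were added after their values were seen. Txnrd1, the cytosolic thioredoxin reductase, had a log2 change of -0.37 (adjusted p 0.00845 by limma), a call lost without nonpermissive replicate 2 (-0.30). Gpx1, a glutathione peroxidase that also reduces hydrogen peroxide, fell by 0.61 on the log2 scale. The other tested genes of that name went both ways, Gpx8 called higher (0.90) and Gpx2 (-0.82) and Gpx4 (-0.30) lower. The mitochondrial thioredoxin Txn2 (-0.15) and sulfiredoxin Srxn1 (-0.01), which repairs overoxidized peroxiredoxins, were not called, and Txn2 was called lower with spike-in scaling (-0.52).

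Of 17 genes of the NRF2 system and of NADPH supply, 6 rose, 2 fell and 9 were not called (median 0.18). Nfe2l2, which encodes NRF2, the transcription factor of the antioxidant response, rose 2.43-fold, and Idh2, which makes NADPH in mitochondria, 1.86-fold. Hmox1, the inducible heme oxygenase, fell 1.85-fold and Osgin1 fell 1.82-fold. Both are known NRF2 targets, and these 2 went opposite to Nfe2l2. They were the only genes of this list called lower. NRF2 targets, in this list or the others, were not counted as a set. Nqo1, a further target looked up after its value was seen, rose by 0.70 on the log2 scale, a call lost with spike-in scaling (0.25). Of 24 mitochondrial matrix enzymes and chaperones 3 rose and 12 fell (median -0.26). With median centring 3 were higher and 15 lower (median -0.44), and with spike-in scaling 2 and 19 (median -0.67). Of all genes tested 33.1% were lower with median centring, and 11.4% higher and 47.9% lower with spike-in scaling. Hspa9, the mitochondrial Hsp70, fell 2.45-fold and the malate dehydrogenase Mdh2 1.65-fold, in the direction of Sod2 and Prdx3, while Idh2 and the transhydrogenase Nnt (1.64-fold) rose.

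Of 15 genes of peroxisome assembly and peroxisomal enzymes 5 rose and 2 fell (median 0.24), and none rose by as much as Cat. With spike-in scaling 1 was called higher and 2 lower, against 11.4% and 47.9% of all genes tested. Gnpat, an enzyme of ether lipid synthesis, rose 1.65-fold and the sterol carrier Scp2 1.58-fold. Further probe sets of Gnpat (-0.34) and Scp2 (0.03) were not called, and both calls were lost when the probe sets of a gene were averaged (0.19 and 0.35). The Scp2 call was lost with spike-in scaling as well (0.26). Pex2, a ligase of the peroxisomal import machinery, fell 1.65-fold. Pex5, the receptor that carries catalase and other enzymes into peroxisomes, had a log2 change of -0.49 (adjusted p 0.0175 by limma), a call lost on the deposited scale (-0.37), without permissive replicate 1 (-0.43) and without nonpermissive replicate 2 (-0.44).

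Among sources of superoxide and peroxide only 7 of 19 genes with a probe set lay above the dim limit, of which 2 rose and 3 fell (median -0.33). The number called, 5 with all arrays, was 3 without nonpermissive replicate 1. Xdh, xanthine dehydrogenase, whose oxidase form makes superoxide and hydrogen peroxide, rose 5.41-fold, from log2 levels of 7.28 and 7.23 to 9.69 and 9.70. Paox, a polyamine oxidase of peroxisomes that releases hydrogen peroxide, fell 2.17-fold, and Cyba, the membrane subunit shared by NADPH oxidases, fell 1.51-fold. The GTPase Rac1, which activates NADPH oxidases, had a log2 change of 0.27 (adjusted p 0.0453 by limma), and its second probe set was at 0.05 without a call. The Rac1 call was lost without permissive replicate 1 (0.27), permissive replicate 2 (0.28) or nonpermissive replicate 1 (0.10). It was also lost on the deposited scale (0.18), with median centring (0.03) and with its probe sets averaged (0.16). Leaving out the dim filter or the intensity trend lost the call too. The sign of the Rac1 change turned with spike-in scaling (-0.20).

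Of 16 genes of oxidative folding in the endoplasmic reticulum, where Prdx4 acts, 4 rose and 3 fell (median -0.06). The number called, 7 with all arrays, dropped to 1 when nonpermissive replicate 1 was left out and to 3 when nonpermissive replicate 2 was. Txndc5, a protein disulfide isomerase, fell 1.72-fold. Pdia5, another of that family, had a log2 change of -0.43, a call lost on the deposited scale (-0.30) and without the dim filter. The Pdia5 call was also lost without permissive replicate 2 (-0.30), nonpermissive replicate 1 (-0.41) or nonpermissive replicate 2 (-0.46). Txndc12 (0.38) and the chaperone Hsp90b1 (0.35) were called higher. Hsp90b1 turned to -0.14 with spike-in scaling. It lost its call with median centring (0.10), without the intensity trend and without nonpermissive replicate 1 (0.28). The Txndc12 call was lost with median centring (0.27) or spike-in scaling (0.04), and without nonpermissive replicate 1 (0.36) or nonpermissive replicate 2 (0.40).

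Of 11 genes that supply copper, zinc and manganese to the dismutases and other proteins, 3 rose and 2 fell (median -0.02). Ccs, the chaperone that loads copper into Sod1, fell 1.55-fold, from log2 levels of 9.86 and 10.02 to 9.48 and 9.14, opposite to Sod1 itself. The copper pump Atp7a, among the 3, lay under the dim limit on both 33 °C arrays and entered the test only through its 39 °C level. Its log2 change of 1.66 was 1.92 with 1 added to each intensity and 1.18 with 64 added. Slc39a8, a carrier of manganese and zinc, rose 3.71-fold, while Slc11a2, which carries iron and manganese, fell 2.45-fold. A second probe set of Slc11a2 had a log2 change of -0.27 and was not called.

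**Figure D4:**
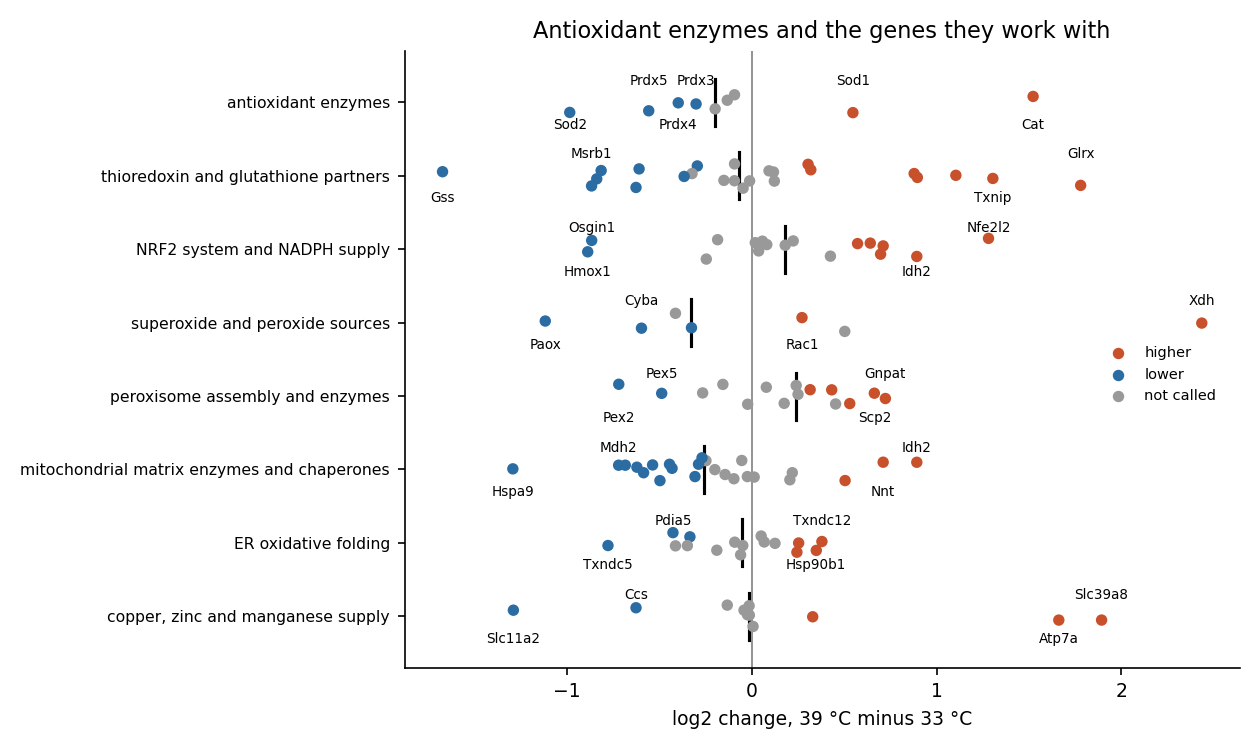
The log2 change, 39 °C minus 33 °C, of the 9 antioxidant genes and of the tested genes in the 7 lists, with 1 point per gene and the median of each row as a black bar. Orange points were called higher, blue points lower and grey points not called (limma, adjusted p under 0.05), and Cat (1.52) lies right of all tested peroxisomal genes while Sod2 (-0.99) lies left of all tested mitochondrial genes but Hspa9 (-1.29).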

How the data were processed

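The deposited values are probe set intensities on a linear scale for 15923 probe sets, scaled by the authors to a mean of 500.2 or 500.1 per array with 2% trimmed at each end, as the values show. Per the labels' protocols, cRNA was made from 5 µg of total RNA. The sources used here do not give the summarising software. The 57 control probe sets were left out, 16 was added, log2 was taken and arrays were quantile normalized. Names came from GEO's platform annotation (12748 of 12783 single-gene probe sets found by identifier in the RefSeq table of GRCr8). Each gene was represented by its brightest single-gene probe set (those ending in _x_at last), and 3395 genes under the 40th percentile were left out as dim. The fit used limma 3.58.1 in R 4.3.3 (lmFit, eBayes with an intensity trend) with Benjamini-Hochberg adjustment over 7016 genes, and was tested on simulated data.

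Differences planned with Prdx1 used Prdx2 alone and cytosolic means leave Prdx1 out, since it had no probe set of its own. The members, lists and alternatives were chosen with earlier results of these data known. Named from each list are up to 2 called genes per direction, those with the largest changes. Lists share some genes. Alternatives changed the scaling, the amount added, the dim filter, the probe sets, the intensity trend, a replicate block and each array in turn. Figures were drawn with matplotlib 3.10.9.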

Additional observations from a re-analysis of the deposited data

How the results depend on the processing

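Over the 144 values of members under 16 alternatives, 130 kept their side of the threshold, 6 lost a call and 8 gained one, and none of the called members changed sign. Cat, Sod2 and Prdx4 kept their calls under all 16. Prdx3 was also lost without an intensity trend (-0.30, adjusted p 0.0870 by limma). With spike-in scaling the members called were 1 higher and 7 lower, Rac1 turned to -0.20 and Hsp90b1 to -0.14. The replicate numbers could not be shown to pair the arrays: deviations of the arrays numbered 1 correlated at 0.007 over probe sets. With the replicate block Prdx2 was called lower (-0.20, adjusted p 0.0430 by limma), and no other member's call changed. Adjusted p-values of that fit were as small as 8.91e-33 for Cat (limma). They rest on variation pooled over genes more than on the spread of each gene's own arrays. Sod2 minus Sod1 moved by -1.44 in place of -1.53 on the deposited scale. Small changes near 0.3 on the log2 scale rest on 2 arrays a group.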
